A study of Mus musculus with 6 samples.

Results

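Voltage-gated sodium and calcium channels, the pacemaker (HCN) and leak channels, the calcium release channels of the endoplasmic reticulum and the calcium pumps of the plasma membrane were examined in depolarized mouse cortical neurons. The set holds 37 genes, named one by one for their function, and each was matched by its symbol to exactly 1 of the 43432 genes listed in the tables. It comprises 5 alpha and 3 beta subunits of sodium channels, 8 alpha1, 3 alpha2delta and 4 beta subunits of calcium channels, 3 HCN channels with the leak channel Nalcn, 3 ryanodine receptors, 3 IP3 receptors and 4 plasma membrane calcium pumps.

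Cortical cells of wild-type C57BL/6 embryos at E16.5, males and females pooled, were cultured for 7 days. All 3 groups, the control included, were silenced overnight from day 6 with 1 μM tetrodotoxin, which blocks sodium channels, and 100 μM DL-AP5, which blocks NMDA receptors. KCl at 55 mM was then applied for 2 h or 6 h or not at all (0 h), with 2 libraries per group, so that the 0 h group is silenced and not depolarized. The study describes the libraries of a group as biological replicates, while the labels do not name separate cultures, so p-values measure only the spread between these libraries.

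In a neuron, sodium channels carry the rising phase of the action potential, and calcium channels let calcium enter when the membrane is depolarized. High potassium depolarizes the membrane directly, and calcium entering through L-type channels is known to drive activity-dependent transcription. Ryanodine and IP3 receptors release calcium from the endoplasmic reticulum, whereas the pumps move it out of the cell. HCN channels open on hyperpolarization and set the resting potential and the firing rhythm.

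The 6 libraries held 25959298 to 28573067 expected counts in total. The activity genes Fos, Npas4 and Bdnf passed as higher at both later times. Npas4, for example, stood at 1.11 and 0.91 TPM at 0 h, 156 and 201 TPM after 2 h and 81.2 and 76.6 TPM after 6 h. Markers of neurons summed to 2660 to 3410 TPM, of astrocytes to 409 to 546 TPM, of the oligodendrocyte lineage to 92.2 to 131 TPM and of dividing progenitors to 76.6 to 98.1 TPM, while microglial and endothelial markers summed to at most 2.81 TPM and 1.10 TPM. None of the listed markers was at 0 in all 6 libraries, and Cx3cr1, P2ry12, Csf1r, Cldn5 and Flt1 were under 1 TPM in each. Of the 5 neuron markers, Tubb3 fell by 1.01 on the log2 scale between 0 h and 6 h, while Snap25, Map2 and Syt1 had log2 differences of 0.89, 0.42 and 0.36 and Rbfox3 one of -0.33. The summed level of the 4 excitatory neuron markers was 369 to 372 TPM at 0 h, 431 to 456 TPM at 2 h and 478 to 495 TPM at 6 h, and of these Tbr1 was called higher at 6 h than at 2 h (log2 difference 1.20). The summed level of the 3 inhibitory neuron markers was 197 to 206 TPM at 0 h, 260 to 278 TPM at 2 h and 445 to 478 TPM at 6 h. Gad1 and Gad2, the enzymes that make GABA, rose by 6 h, and the GABA transporter Slc32a1 was not called (log2 difference 0.63). The summed level of the 5 astrocyte markers was 508 to 546 TPM at 0 h and 409 to 420 TPM at 6 h, and none of them was called. Among the low markers, Mog passed as lower after 6 h against both other times (mean 0.84 TPM at 6 h and 2.89 at 0 h), P2ry12 as higher after 6 h against both (0.63 and 0.64 TPM at 6 h), and Pecam1 as higher at both later times than at 0 h (at most 1.03 TPM). The part of these shifts in the results that follow was not tested, and in bulk libraries fewer cells of a type and less RNA per cell cannot be told apart.

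Calls required an adjusted p (DESeq2, Benjamini-Hochberg over all genes) of 0.05 or less together with a fold change over 2, which is over 1 on the log2 scale. At 2 h, 0 of the 37 members were called, against a background of 3.62% of all tested genes called higher and 5.94% called lower. An unadjusted p under 0.05 was found for 15 members, and edgeR called 0 as well. At 6 h compared with 0 h, 2 members were called higher and 6 lower, that is 5.41% and 16.2% of the members, against 9.10% and 10.2% of all genes. In the comparison of 6 h with 2 h, 3 members were called higher and 5 lower, or 8.11% and 13.5%, against 10.1% and 8.02% of all genes. With library totals as size factors these counts were 2 and 8 against 0 h and 2 and 6 against 2 h, and with GC correction 2 and 4 in both. The 10 genes called at least once were Scn1a, Scn2b, Cacna1d, Cacna1i, Cacnb2, Hcn3, Hcn4, Itpr1, Itpr2 and Itpr3.

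With the adjusted p alone and no fold limit, 9 members were higher and 1 lower at 2 h than at 0 h, against 12.3% and 14.2% of all genes. At 6 h relative to 0 h, 7 were higher and 15 lower, against 23.7% and 21.7% of all genes. At 6 h relative to 2 h, 6 were higher and 21 lower, against 24.1% and 21.2% of all genes. The median log2 fold change of the members was 0.14, -0.27 and -0.42 in the 3 comparisons, beside 0.02, 0.00 and -0.01 for all tested genes. With library totals, 4 members were higher and 3 lower at 2 h, and 4 higher and 22 lower at 6 h, both against 0 h. GC correction gave 12 higher and 4 lower at 2 h. These comparisons share libraries and are not independent of each other.

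**Figure D1:**
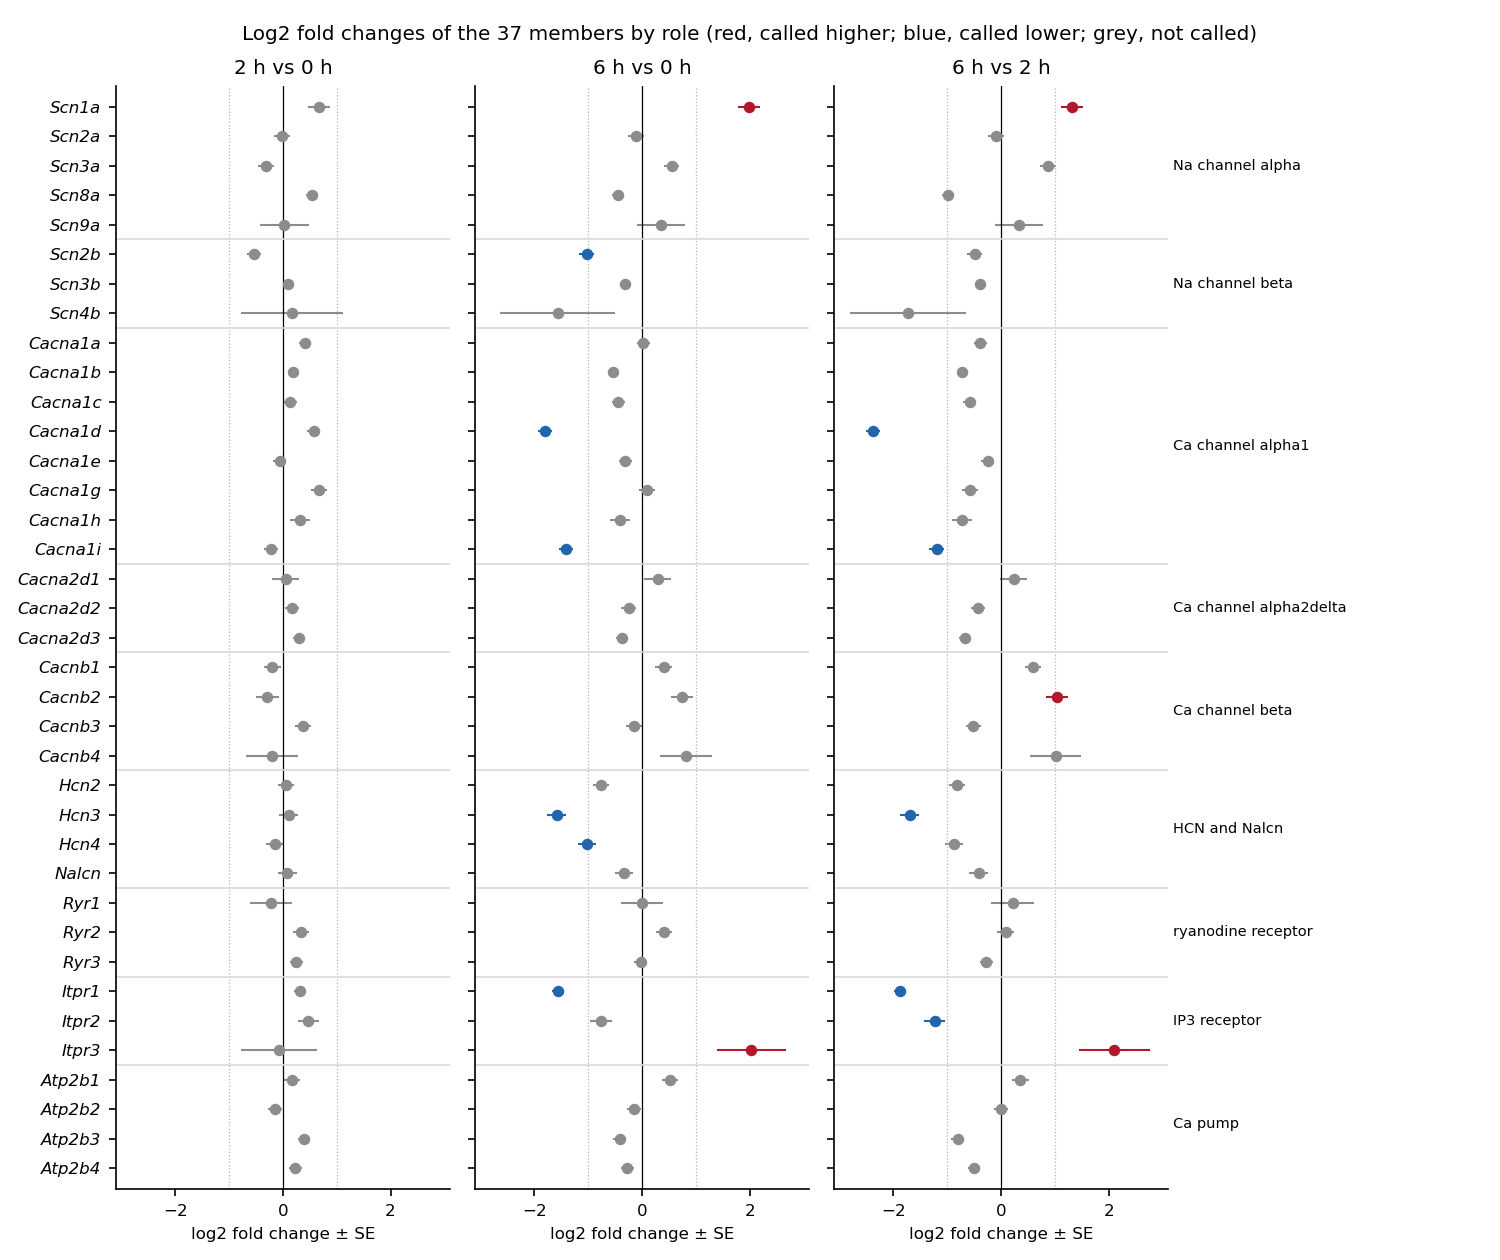
Log2 fold change ± SE of each of the 37 members (rows, grouped by role) at 2 h against 0 h, 6 h against 0 h and 6 h against 2 h, with 2 libraries per group and dotted lines at a fold of 2. No member is coloured at 2 h, whereas 8 are coloured in each of the other panels, red for called higher and blue for called lower.

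Among the sodium channel alpha subunits, which form the pore, Scn1a was the one that was called. Scn1a (chr2:66270778-66440840, GRCm38) had 706 and 561 normalized counts at 0 h, 1179 and 848 after 2 h and 2439 and 2602 after 6 h. The libraries of the 3 groups did not overlap. Scn1a rose by 1.99 ± 0.20 (log2 fold change ± SE, adjusted p = 2.07e-21, DESeq2) from 0 h to 6 h, a fold of 3.98, and by 1.31 ± 0.20 from 2 h to 6 h (adjusted p = 7.15e-10, DESeq2). The difference at 2 h was 0.68 ± 0.20, a fold of 1.60. Both calls held in all 12 alternative fits. An antisense gene, Gm13630, overlaps Scn1a, and 2 of its 6 counts were not whole numbers, so a share of its reads is uncertain. As a share of the TPM of the 5 alpha subunits, Scn1a took 4.80% and 3.96% at 0 h and 13.3% and 13.4% at 6 h. Scn1a is known to be prominent in inhibitory neurons, whose markers Gad1 and Gad2 were higher at 6 h as given above. Their log2 fold changes from 0 h to 6 h were 1.42 and 1.36, while that of the inhibitory marker Slc32a1 was 0.63 and was not called. Whether these marker shifts have a part in the Scn1a rise was not tested.

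The other alpha subunits were not called. Scn2a, the most abundant of them at 0 h, had 7098 and 6462 normalized counts at 0 h and 6135 and 6378 at 6 h, a log2 difference of -0.12 ± 0.15. On the TPM scale it stood at 70.2 and 65.0 at 0 h and at 49.7 and 56.2 at 6 h. Scn3a, the subunit best known from the embryonic brain, had 3441 and 3077 normalized counts at 0 h, 2891 and 2334 after 2 h and 4781 and 4756 after 6 h. It was higher by 0.55 ± 0.15 at 6 h than at 0 h and by 0.87 ± 0.15 than at 2 h (adjusted p = 0.000601 and 2.5e-08, DESeq2). In TPM, Scn2a was above Scn3a in every library at 0 h and 2 h and below it in both libraries at 6 h. TPM divides counts by effective length, so this order also depends on the lengths. The effective length of Scn3a was 6070 and 5366 bases at 0 h and 4720 and 4552 at 6 h, a log2 ratio of -0.30 that was not called (adjusted p = 0.401, limma).

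Scn8a, the subunit of mature axon initial segments and nodes, had 2707 and 2499 normalized counts at 0 h, 3711 and 3891 after 2 h and 1967 and 1875 after 6 h. The 2 h libraries were the highest and the 6 h libraries the lowest, with no overlap. It was higher by 0.55 ± 0.11 at 2 h than at 0 h and had a log2 difference of -0.98 ± 0.11 between 6 h and 2 h. The second difference lay just inside a fold of 2, and edgeR called it at -1.02 (adjusted p = 0.000153). Scn9a, known from sensory neurons, stayed between 44.5 and 105 normalized counts and its groups overlapped at 0 h and 2 h.

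The beta subunits, which bind alpha subunits and set their gating and surface level, were led by Scn3b. This gene had the highest TPM of all 37 members, 214 and 206 at 0 h and 144 and 142 at 6 h. Its normalized counts differed by -0.31 ± 0.09 on the log2 scale between 6 h and 0 h (adjusted p = 0.00231, DESeq2). Scn2b (chr9:45117782-45130070) was the called member of the group. It had 931 and 925 normalized counts at 0 h, 636 and 646 after 2 h and 437 and 476 after 6 h. Replicates lay close together and the groups did not overlap. Scn2b fell by 1.02 ± 0.14 on the log2 scale at 6 h compared with 0 h (adjusted p = 8.65e-13, DESeq2). This lies just past a fold of 2, and with GC correction (-0.99) or without the KCl 6 h replicate 1 (-0.96) it was no longer called. Scn4b had 1 to 12 expected counts per library, and no difference was detectable at that depth.

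**Figure D2:**
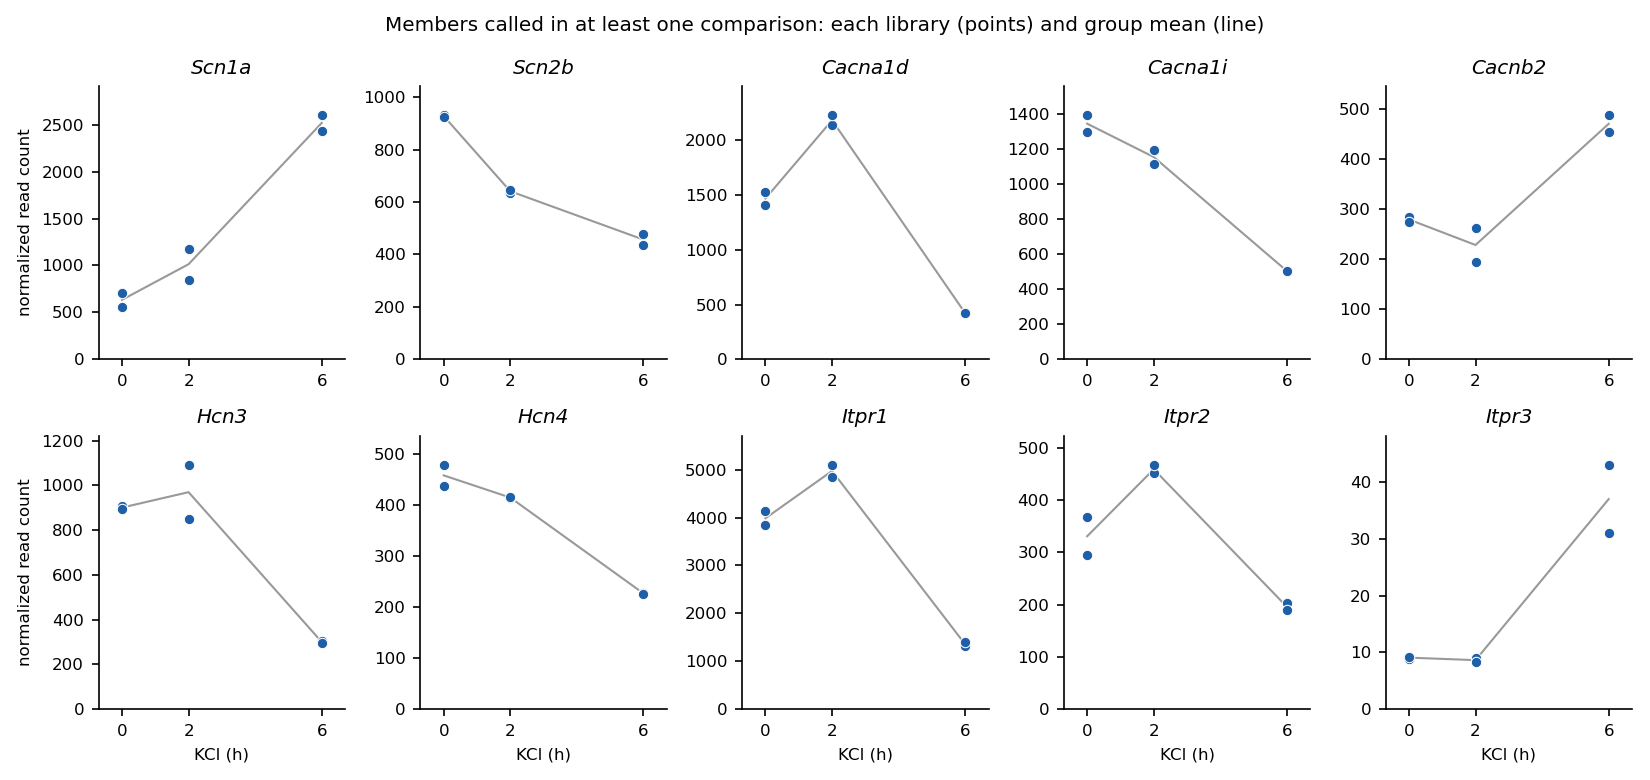
Normalized read count of the 10 called members against time in KCl (h), with each library as a point (2 per time) and the group means joined by a line. Scn1a climbs at each time, Cacna1d, Itpr1 and Itpr2 peak at 2 h and are lowest at 6 h, and Itpr3 stays below 50 counts.

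The alpha1 subunits of calcium channels form the pore and define the channel type. All 8 were tested. At 6 h against 0 h, 2 of them (25.0%) were called lower and 0 higher, against 10.2% and 9.10% of all genes. With the adjusted p alone and no fold limit, 5 were lower and 0 higher, against 21.7% and 23.7% of all genes. Cacna1d (chr14:30039939-30491455), an L-type subunit that opens at more negative voltages than Cacna1c, had 1530 and 1407 normalized counts at 0 h, 2139 and 2230 after 2 h and 423 and 419 after 6 h. The 2 h libraries were the highest and the 6 h libraries the lowest, with no overlap. Cacna1d was higher by 0.57 ± 0.12 at 2 h (adjusted p = 1.53e-05, DESeq2). It then fell by 2.38 ± 0.13 on the log2 scale from 2 h to 6 h, a 5.19-fold decrease (adjusted p = 3.48e-75, DESeq2). Between 0 h and 6 h it fell by 1.80 ± 0.13 (adjusted p = 2.07e-43, DESeq2), and both calls held in all 12 alternative fits. Chdh and Dcp1a overlap Cacna1d on the opposite strand and its counts were not whole in any of the 6 libraries, so its reads are shared in part with other genes and its level is uncertain.

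Cacna1c, the other L-type subunit in the set and the main one of forebrain neurons, had 3105 and 2869 normalized counts at 0 h, 3118 and 3443 after 2 h and 2264 and 2132 after 6 h. Against 0 h, its 6 h level had a log2 difference of -0.44 ± 0.12 (adjusted p = 0.000754, DESeq2) and was not called. Dcp1b overlaps it on the opposite strand. Together Cacna1c and Cacna1d summed to 33.3 and 30.6 TPM at 0 h, 32.9 and 36.8 TPM after 2 h and 18.8 and 18.2 TPM after 6 h. Cacna1d made up 37.7% and 38.3% of this sum at 0 h, 46.7% and 44.6% after 2 h and 16.0% and 17.0% after 6 h.

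Of the T-type subunits, which open near the resting potential, Cacna1i (chr15:80287238-80398279) was called. Its normalized counts were 1392 and 1296 at 0 h, 1115 and 1192 after 2 h and 505 and 501 after 6 h. Cacna1i fell by 1.42 ± 0.13 on the log2 scale from 0 h to 6 h (adjusted p = 5.14e-26, DESeq2) and by 1.20 ± 0.13 from 2 h to 6 h (adjusted p = 2.04e-18, DESeq2). The second call was lost with GC correction, at -0.93. The other T-type subunits were not called. Cacna1g was higher by 0.67 ± 0.15 at 2 h than at 0 h and by 0.10 ± 0.15 at 6 h than at 0 h. Cacna1h had a log2 difference of -0.41 ± 0.19 at 6 h from 0 h (adjusted p = 0.0614, DESeq2). From 2 h to 6 h the log2 differences of Cacna1g and Cacna1h were -0.57 ± 0.15 and -0.73 ± 0.19 (adjusted p = 0.000439 and 0.000338, DESeq2).

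The subunits of the presynaptic P/Q-type (Cacna1a), N-type (Cacna1b) and R-type (Cacna1e) channels were not called. Cacna1b had 5000 and 4747 normalized counts at 0 h and 3270 and 3487 at 6 h, a log2 difference of -0.53 ± 0.10 (adjusted p = 2.14e-06, DESeq2). Cacna1a had 1694 and 1664 normalized counts at 0 h, 2119 and 2346 after 2 h and 1643 and 1769 after 6 h. Its 6 h and 0 h libraries overlapped, and the log2 difference was 0.02 ± 0.12. On the TPM scale Cacna1a stood at 48.6 and 48.5 at 0 h and at 30.1 and 37.4 at 6 h. RSEM corrects effective length for fragment size and averages it over the transcripts of a gene by abundance. For Cacna1a it was 2459 and 2435 bases at 0 h and 3355 and 2967 at 6 h, a log2 ratio of 0.37 that was not called (adjusted p = 0.239, limma). Cacna1e had a log2 difference of -0.31 ± 0.12 at 6 h from 0 h (adjusted p = 0.0232, DESeq2).

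The alpha2delta subunits bring calcium channels to the surface. None of the 3 was called. Cacna2d3 was higher by 0.29 ± 0.10 at 2 h than at 0 h and had a log2 difference of -0.38 ± 0.10 between 6 h and 0 h (adjusted p = 0.0179 and 0.000971, DESeq2). For Cacna2d2 the 6 h level had log2 differences of -0.25 ± 0.13 from 0 h and -0.42 ± 0.13 from 2 h (adjusted p = 0.121 and 0.00474, DESeq2). Cacna2d1, the most abundant of them, had 8123 normalized counts in one 2 h library and 4499 in the other, and its differences were within that spread.

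The beta subunits bind the alpha1 subunit from inside the cell and promote its traffic. Cacnb2 (chr2:14603088-14987908) had 283 and 275 normalized counts at 0 h, 262 and 194 after 2 h and 487 and 453 after 6 h. Its 6 h libraries were above all others. Cacnb2 rose by 1.04 ± 0.21 on the log2 scale from 2 h to 6 h (adjusted p = 3.35e-06, DESeq2), and its difference between 6 h and 0 h was 0.75 ± 0.21. The call was lost with library totals (0.97), with GC correction (0.95), without the KCl 2 h replicate 2 (0.86) and without the KCl 6 h replicate 1 (0.99).

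Cacnb4, another beta subunit, had 1388 and 1164 normalized counts at 0 h, 1552 and 668 after 2 h and 2140 and 2338 after 6 h. Its 2 h libraries lay on both sides of the 0 h libraries. The log2 difference of 6 h from 2 h was 1.01 ± 0.48 (adjusted p = 0.0736, DESeq2), and it was called at 1.75 without the KCl 2 h replicate 1. Cacnb1 was higher by 0.40 ± 0.15 at 6 h than at 0 h (adjusted p = 0.0221, DESeq2). Cacnb3, the most abundant beta subunit at 0 h with 82.4 and 84.7 TPM, differed by -0.14 ± 0.15.

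All 3 HCN members were lower after 6 h in KCl than before it at an adjusted p of 0.05 or less, and 2 of them were called. Hcn3 (chr3:89146074-89160196) had 909 and 892 normalized counts at 0 h, 849 and 1091 after 2 h and 305 and 295 after 6 h. The 6 h libraries were far below all others, while 0 h and 2 h overlapped. Hcn3 fell by 1.59 ± 0.18 on the log2 scale from 0 h to 6 h (adjusted p = 1.02e-17, DESeq2), and by 1.69 ± 0.18 from 2 h to 6 h (adjusted p = 7.93e-20, DESeq2). Hcn4 (chr9:58823412-58863175), the main pacemaker channel of the heart, had 478 and 437 normalized counts at 0 h, 412 and 416 after 2 h and 228 and 225 after 6 h. It fell by 1.02 ± 0.17 on the log2 scale at 6 h compared with 0 h (adjusted p = 1.23e-08, DESeq2). The Hcn4 call was lost with GC correction (-0.90) and without the KCl 0 h replicate 1 (-0.95). Hcn2 had 545 and 598 normalized counts at 0 h and 343 and 330 at 6 h, a log2 difference of -0.76 ± 0.15 (adjusted p = 3.28e-06, DESeq2).

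In TPM the 3 HCN members summed to 45.2 and 47.5 at 0 h, 43.8 and 52.2 after 2 h and 20.2 and 19.6 after 6 h. Hcn3 took the greatest share of this sum in every library, 48.2% and 49.0% at 0 h and 42.1% and 41.3% at 6 h. Nalcn, the sodium leak channel, had a log2 difference of -0.33 ± 0.17 at 6 h from 0 h (adjusted p = 0.106, DESeq2).

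**Figure D3:**
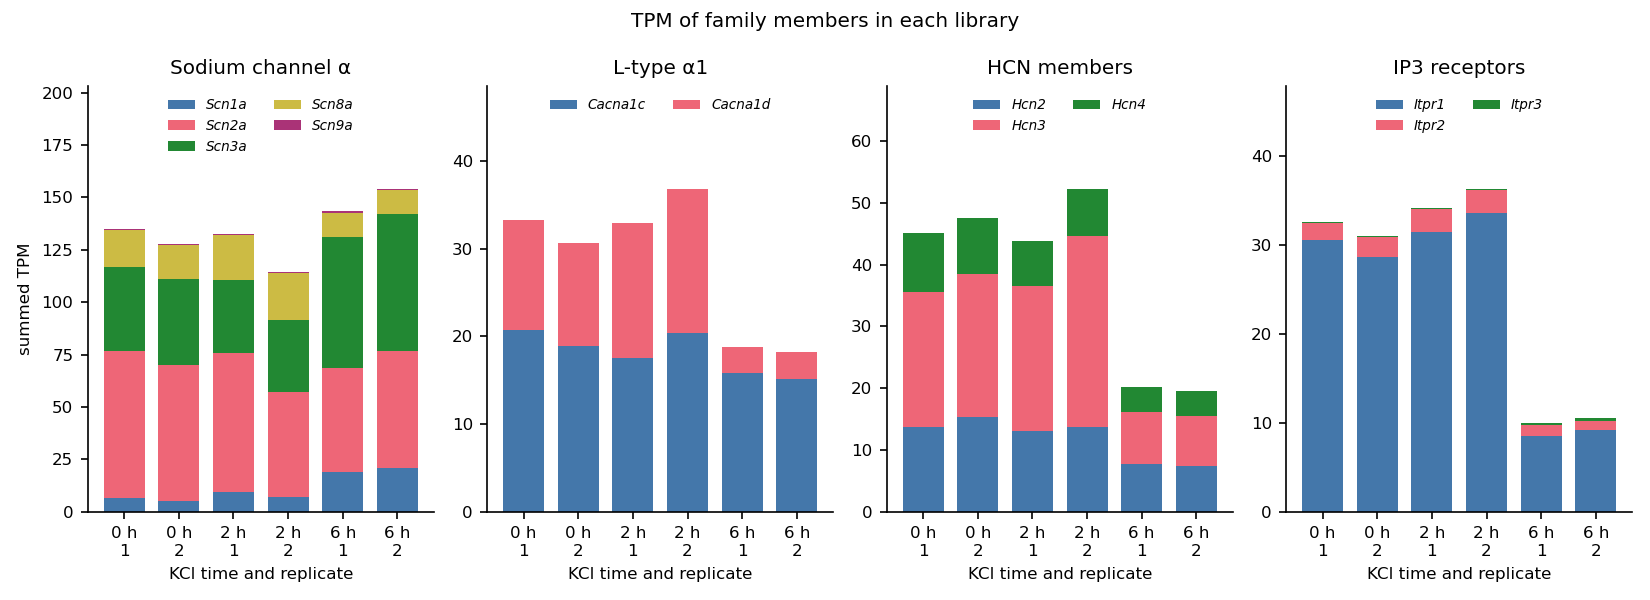
TPM of each family member stacked per library (KCl time and replicate below each bar) for sodium channel alpha subunits, L-type alpha1 subunits, the 3 HCN members and IP3 receptors. Between 0 h and 6 h the Scn1a and Scn3a segments grow, the Cacna1d segment shrinks, the HCN bar drops from 45.2 and 47.5 to 20.2 and 19.6 TPM, and the IP3 receptor bar drops from 32.5 and 31.0 to 9.94 and 10.5 TPM.

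Of the calcium release channels, the IP3 receptors differed and the ryanodine receptors did not pass the call. Itpr1 (chr6:108213096-108551109), the main IP3 receptor of neurons, had 4131 and 3841 normalized counts at 0 h, 4852 and 5097 after 2 h and 1312 and 1392 after 6 h. The 2 h libraries were the highest and the 6 h libraries the lowest, without overlap. Itpr1 was higher by 0.32 ± 0.11 at 2 h (adjusted p = 0.0146, DESeq2), then fell by 1.88 ± 0.11 on the log2 scale from 2 h to 6 h, 3.68-fold (adjusted p = 5.3e-62, DESeq2). Relative to 0 h it fell by 1.56 ± 0.11 (adjusted p = 4.32e-43, DESeq2). Both calls held in all 12 alternative fits.

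Itpr2 (chr6:146108299-146502223) had 295 and 367 normalized counts at 0 h, 451 and 467 after 2 h and 202 and 189 after 6 h. It fell by 1.23 ± 0.20 on the log2 scale from 2 h to 6 h (adjusted p = 5.43e-09, DESeq2), and its difference between 6 h and 0 h was -0.76 ± 0.20. Itpr3 (chr17:27057304-27122223) had 10 and 11 expected counts at 0 h, 9 and 8 after 2 h and 29 and 40 after 6 h. It rose by 2.03 ± 0.64 from 0 h and by 2.10 ± 0.66 from 2 h to 6 h (adjusted p = 0.00471 and 0.0044, DESeq2). These calls rest on few reads, and leaving out any one library of the groups compared gave an adjusted p of 0.0718 to 0.206 against 0 h and, where one was assigned, of 0.0561 to 0.195 against 2 h. Itpr1 held 93.7% and 92.3% of the IP3 receptor TPM at 0 h and 85.3% and 87.2% at 6 h, and the sum dropped from 32.5 and 31.0 TPM to 9.94 and 10.5 TPM.

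Ryr2, a ryanodine receptor of heart and brain, was higher by 0.42 ± 0.15 at 6 h than at 0 h (adjusted p = 0.014, DESeq2). Ryr3 differed by -0.02 ± 0.12 between the same groups, and it overlaps Aven on the opposite strand with counts that were not whole in 6 libraries. Ryr1, the skeletal muscle form, had 38 to 66 expected counts per library and a log2 difference of 0.00 ± 0.39. The summed TPM of the 3 ryanodine receptors was 14.8 to 17.8 in all 6 libraries.

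The plasma membrane calcium pumps were not called in any comparison. Atp2b1, the most abundant of the 4, had 9775 and 9580 normalized counts at 0 h, 12325 and 9307 after 2 h and 13900 and 13856 after 6 h, a log2 difference of 0.52 ± 0.16 at 6 h from 0 h (adjusted p = 0.00253, DESeq2). Atp2b3 had 1512 and 1444 normalized counts at 0 h, 1892 and 1986 after 2 h and 1164 and 1056 after 6 h. It was higher by 0.39 ± 0.12 at 2 h and lower by a log2 difference of -0.41 ± 0.12 at 6 h, both against 0 h. Atp2b4 and Atp2b2 differed by -0.27 ± 0.12 and -0.15 ± 0.12 at 6 h from 0 h (adjusted p = 0.0526 and 0.342, DESeq2). The summed TPM of the 4 pumps was 241 to 248 at 0 h and 2 h and 232.5 to 235 at 6 h.

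The replicates at 2 h differed along GC content, and the members show it. Over the 37 members the log2 ratio of replicate 1 to replicate 2 had a Spearman correlation with transcript GC content of -0.56 at 0 h, -0.72 at 2 h and -0.08 at 6 h, given as a description since all points share the same libraries. At 2 h the ratio ranged from -0.36 for Hcn3 to 1.22 for Cacnb4. Cacnb4, Scn9a and Cacna2d1 exceeded 0.5 in size at 2 h, no member did at 0 h, and Scn4b did at 6 h. Scn1a, at 43.3% GC, had a ratio of 0.48 at 2 h, and Hcn4, at 58.0% GC, one of -0.01.

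**Figure D4:**
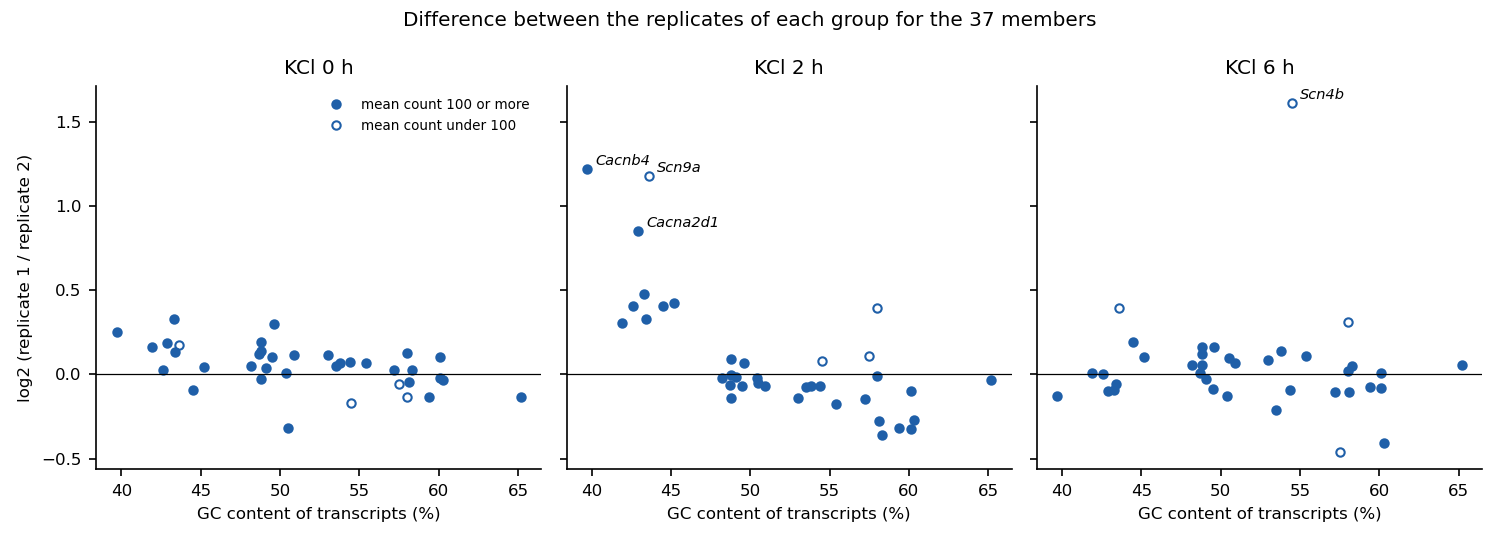
Log2 ratio of normalized counts in replicate 1 to replicate 2 (y axis, 1 added to each count) against the GC content of the transcripts in percent (x axis) for the 37 members at each KCl time, open circles marking mean counts under 100. At 2 h the GC-poor members lie above 0 and Cacnb4 reaches 1.22, while at 0 h the points lie between -0.32 and 0.33.

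To ask whether the mix of transcripts moved, effective lengths were compared for the 33 members whose mean expected count reached 100. None was called at 2 h against 0 h, where 0.0356% of all genes were called and 2 members had an unadjusted p under 0.05 (limma). At 6 h against 0 h, 1 member was called against 0.525% of all genes, and at 6 h against 2 h 0 members against 0.116%, with 7 and 5 members at an unadjusted p under 0.05. Cacna1c was the called member. Its effective length was 10554 and 10799 bases at 0 h, 10998 and 10624 after 2 h and 8825 and 8859 after 6 h. The 6 h libraries were the shortest by far, with a log2 ratio of -0.27 ± 0.02 to 0 h (adjusted p = 0.0469, limma). The call did not survive any of the alternative fits, in all of which 0 members were called. Hcn3 had 2943 and 2722 bases at 0 h, 2237 and 2211 after 2 h and 2211 and 2276 after 6 h, with ratios of -0.35 ± 0.04 and -0.34 ± 0.04 (adjusted p = 0.179 and 0.0926, limma).

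Other genes of the same pathway were read from a list of 74, of which 73 matched a symbol and 72 had a count. At 2 h, 3 were called higher and 2 lower of 69 tested (4.35% and 2.90%), against 3.62% and 5.94% of all genes. At 6 h against 0 h, 8 were called higher and 3 lower of 70 (11.4% and 4.29%), against 9.10% and 10.2% of all genes. At 6 h against 2 h, 8 were higher and 4 lower of 68 (11.8% and 5.88%), against 10.1% and 8.02% of all genes. Gem and Rem2 are small GTPases that bind calcium channel beta subunits and inhibit the channels. Gem had 28.4 and 28.7 normalized counts at 0 h, 162 and 148 after 2 h and 399 and 509 after 6 h, and rose by 2.44 and 3.99 on the log2 scale at 2 h and 6 h (adjusted p = 2.17e-15 and 4.32e-43, DESeq2). Rem2 had 80.8 and 91.01 normalized counts at 0 h, 359 and 384 after 2 h and 333 and 364 after 6 h. It rose by 2.11 and 2.02 at the 2 times. For Rem2 the 6 h and 2 h libraries had a log2 difference of -0.09 (adjusted p = 0.729, DESeq2), while Gem rose by another 1.55.

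Stac, an adaptor that binds L-type channels, rose by 1.62 at 6 h (adjusted p = 2.94e-12, DESeq2), and its relative Stac3 fell by 2.44 from 2 h to 6 h on 2 to 20 expected counts (adjusted p = 0.0274, DESeq2). Jph1, a junctophilin that holds the endoplasmic reticulum to the plasma membrane, had 125 and 129 normalized counts at 0 h, 42.9 and 40.3 after 2 h and 338 and 339 after 6 h. It fell by 1.61 on the log2 scale at 2 h and rose by 1.41 at 6 h, both against 0 h. Orai1, the pore of store-operated calcium entry, had 53.3 and 71.6 normalized counts at 0 h, 13.0 and 18.6 after 2 h and 57.8 and 52.7 after 6 h, and fell by 1.99 at 2 h (adjusted p = 0.000207, DESeq2). Slc24a4, a potassium-dependent sodium-calcium exchanger, rose by 1.64 at 6 h.

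Scn4a, the muscle alpha subunit, had 0 expected counts in both 0 h libraries, 9 and 12 after 2 h and 113 and 92 after 6 h. Set against a floor of 3 counts per library, it was at least 4.12-fold higher at 2 h and at least 42.4-fold higher at 6 h. Fgf11, of the fibroblast growth factor homologues that bind sodium channels, had 855 and 950 normalized counts at 0 h and 228 and 224 at 6 h, and fell by 2.00. Cacna2d4 had 11 and 21 expected counts at 0 h and 3 and 1 at 6 h, at or below the floor. Set against that floor, its 0 h mean gave a fall of at least 4.27-fold, which leaves counting error aside. The fitted log2 difference was -2.68 ± 1.17 (adjusted p = 0.049, DESeq2), so the call was borderline and a smaller fall is not excluded. Cacng5 was called in both comparisons, with log2 differences of 1.18 at 6 h from 0 h and 1.49 at 6 h from 2 h. Stim1 was called at 6 h against 2 h (-1.16) but not at 6 h against 0 h (-0.95).

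Promoter sequences were taken from RefSeq (GRCm38.p6) for 28 of the 37 members, in 41 windows of 250 bases that end at a transcript start. The members Scn3a, Scn3b, Cacna1a, Cacna1g, Cacna1h, Hcn3, Ryr3, Itpr1 and Atp2b3 had no entry. The windows of Cacna1d, Cacna1i and Hcn4, are shown as those of members called lower at 6 h against 0 h that no annotated exon overlaps. The strand is minus for Cacna1d (chr14:30353487-30353736, one of its 2 windows) and plus for Cacna1i (chr15:80286988-80287237) and Hcn4 (chr9:58822699-58822948). Capitals mark a match to TGACG, the core of the cAMP response element (CRE), here on the opposite strand.
Cacna1d: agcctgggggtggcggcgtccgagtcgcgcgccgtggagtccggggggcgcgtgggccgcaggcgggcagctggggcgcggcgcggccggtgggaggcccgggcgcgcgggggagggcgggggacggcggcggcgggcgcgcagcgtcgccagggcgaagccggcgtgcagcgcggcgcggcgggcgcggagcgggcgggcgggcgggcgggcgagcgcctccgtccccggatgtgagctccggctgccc
Cacna1i: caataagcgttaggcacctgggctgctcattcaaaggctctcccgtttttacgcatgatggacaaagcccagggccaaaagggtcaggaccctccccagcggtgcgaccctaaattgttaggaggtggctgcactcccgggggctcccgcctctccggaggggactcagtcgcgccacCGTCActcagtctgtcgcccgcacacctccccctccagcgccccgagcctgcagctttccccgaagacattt
Hcn4: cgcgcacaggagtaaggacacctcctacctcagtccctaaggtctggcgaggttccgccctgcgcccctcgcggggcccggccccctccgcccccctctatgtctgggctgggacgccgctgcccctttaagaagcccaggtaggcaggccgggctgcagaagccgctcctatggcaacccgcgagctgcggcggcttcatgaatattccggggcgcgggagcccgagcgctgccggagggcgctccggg
GC content was 86.4% in the Cacna1d window, 62.4% in that of Cacna1i and 71.2% in that of Hcn4. Both strands were searched for the full CRE (TGACGTCA), the AP-1 site (TGANTCA), the EGR site (GCGTGGGCG), the E-box CACGTG and TGACG, which is also contained in the full CRE. The full CRE, AP-1 and EGR letters were in 0 of the 41 windows, compared with 1.55%, 6.75% and 0.536% of all 32851 windows. The E-box was in 1 window, that of Itpr3, compared with 6.02% of all. TGACG was in 5 windows (12.2%), those of Cacna1b, Cacna1c, Cacna1i, Cacna2d1 and Cacnb2, compared with 17.8% of all.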

How the data were processed

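Poly(A) RNA of 6 libraries (3 groups of 2) was sequenced as stranded paired-end reads. Per the submitters' processing notes the authors used the mm10 build, Bowtie2 2.2.9 and RSEM 1.3.0. The annotation release and the strand setting are not given in the sources used here. The deposited expected counts are RSEM estimates, not normalized, that share multi-mapping reads among genes. The deposited TPM values are corrected by the authors for transcript length and scaled to a fixed total per library. Effective length, also deposited, is RSEM's transcript length in bases corrected for fragment size and averaged over each gene's transcripts by abundance.

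Expected counts were rounded and the 22515 genes with a count were fitted in 1 DESeq2 1.42.0 model (R 4.3.3) that held the 6 libraries and a group term alone, with median-of-ratios size factors, unshrunken fold changes, Wald tests and Benjamini-Hochberg adjustment. These thresholds and this tool follow the methods of the study. Normalized counts are counts divided by size factors and are compared within a gene, while TPM was used between genes. Effective lengths were tested with limma 3.58.1 (trend) for genes whose mean expected count reached 100, calls requiring an adjusted p of 0.05 or less with a log2 ratio of 0.2 or more in size. Fold changes against a group at or under 3 counts in each library are lower bounds set by that floor, which leave counting error aside. Symbols, positions, overlaps and GC content came from GENCODE M21 (GRCm38), which may be another release than the authors'. Alternatives were edgeR 4.0.16 with TMM factors, library totals as size factors, a minimum mean expected count of 10, a replicate block, GC correction, both of these together, and each library left out in turn. The scripts were tested on simulated data. Counting precision covers counting error only, since reads carry no molecular identifiers. The members and gene lists were chosen with earlier results of these data known. Every member is accounted for, called members with each library's value, and of the 12 called genes of the pathway list with the largest log2 fold changes all but those not reported here are named, with Cacng5 and Stim1 added after their values were seen.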

Additional observations from a re-analysis of the deposited data

How the results depend on the processing

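Of the 59 member differences at an adjusted p of at most 0.05, 0 changed sign in any of the 12 alternative fits. With edgeR 56 kept an adjusted p of at most 0.05, with library totals 50, with the count minimum 59, with the replicate block 58 and with GC correction 56, alone or with the block, while with 1 library left out 35 to 57 did. Of the differences that missed the threshold, 11 of 52 changed sign with library totals and 0 to 6 in the other fits. Library totals moved the median log2 fold change of all genes to -0.16 at 2 h and -0.25 at 6 h, both against 0 h, and relative to it the members' medians were 0.13 and -0.26, as in the reported fit (0.12 and -0.26). Library totals added Hcn2 (-1.01) and Itpr2 (-1.01) to the 6 h calls against 0 h. Leaving out a single library gave 1 to 2 members called higher at 6 h against 0 h and 1 to 4 at 6 h against 2 h, where without the KCl 2 h replicate 1 Cacnb4 (1.75) and Scn3a (1.04) were added as higher and Scn8a (-1.01) as lower. Members called lower were 5 to 6 in both.

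The replicate numbers are shared by the groups, but the labels do not tie them to a culture or day. The log2 differences of replicate 1 from replicate 2 correlated between groups at 0.28, -0.00 and 0.15 in the 3 comparisons, over 12290 genes and with only 2 replicate numbers. These differences also followed GC content, with Spearman correlations of -0.41 at 0 h, -0.75 at 2 h and -0.29 at 6 h. With the replicate block, 2 members were called higher and 6 lower at 6 h against 0 h, and 4 higher and 5 lower at 6 h against 2 h, Cacnb4 (1.11) being added. The single effective length call at 6 h became 0 with the replicate block, 0 with a minimum mean count of 50 and 0 to 0 with each library left out. The cause was not tested. With 2 libraries per group, low-count members such as Itpr3 and Scn4b are limited by depth.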

Other observations

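Calcium handling inside the cell was read from the same pathway list. Atp2a2, the main calcium pump of the endoplasmic reticulum, had 13770 and 13179 normalized counts at 0 h, 18816 and 18867 after 2 h and 26744 and 26802 after 6 h. The libraries did not overlap between groups, and the log2 difference at 6 h from 0 h was 0.99 (adjusted p = 2.18e-28, DESeq2), just inside a fold of 2. Stim1 and Stim2, the calcium sensors of the endoplasmic reticulum, differed by -0.95 and 0.95 at 6 h from 0 h (adjusted p = 6.88e-09 and 6.28e-13, DESeq2). Of the mitochondrial uniporter genes, Micu2 differed by -0.49 (adjusted p = 1.87e-05) and Mcu by -0.28 (adjusted p = 0.0991) at 6 h from 0 h. The sodium-calcium exchanger Slc8a2 had a log2 difference of -0.81 at 6 h from 0 h, and Slc8a1 one of 0.37 (adjusted p = 5.16e-09 and 0.0928, DESeq2).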
